A study of Mus musculus with 14 samples.

Results

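The genes followed here were 10 bone mineralisation and osteoblast genes, Ibsp, Spp1, Dmp1, Mepe, Phex, Ifitm5, Panx3, Runx2, Sp7 and Alpl, taken by their symbols in the platform annotation. Of these, 8 were measured, by 1 probe each, among 16618 genes tested; no probe carries the symbol Spp1 or Runx2 in that annotation, and both were not analysed here. The list was chosen by function with measured log2 ratios of these same tumours already known, among them those of Ibsp in T176, in T2023 and in the others, so the members' differences between tumours are given as a description and no test of them is used as support. RNA came from 12 mammary tumours of Brg1+/- mice, which carry 1 functional copy of Smarca4 (Brg1), the ATPase of a SWI/SNF chromatin remodelling complex. On 14 two-colour arrays the tumour RNA was labelled with Cy5 and a common mouse reference RNA with Cy3, and each value below is the log2 ratio of tumour over reference on that probe. That the logarithm has base 2 was read from how widely the values spread. For T172 and T284 a repeat array exists, which the labels call a biorep, and the 2 arrays of each were averaged; the other 10 tumours had 1 array each. All tumours shared 1 genotype and no normal or wild-type tissue was compared, and the labels give no age, sex or treatment, nor whether tumours came from separate animals. Every sample name begins with MIXED, a word the labels do not explain.

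Bone mineral forms when osteoblasts lay down type I collagen and then deposit calcium phosphate in it. Runx2 and Sp7 (osterix) are transcription factors that osteoblast differentiation requires. Alpl, the tissue-nonspecific alkaline phosphatase, cleaves pyrophosphate, an inhibitor of mineral growth. Ibsp (bone sialoprotein), Spp1 (osteopontin), Dmp1 and Mepe belong to the SIBLING family of acidic secreted phosphoproteins that bind mineral and integrins, and Phex is a membrane endopeptidase of osteoblasts and osteocytes whose loss causes phosphate wasting. Ifitm5 is a small membrane protein of osteoblasts, and Panx3 is a channel protein of bone and cartilage cells. Mammary tumours are known to express some of these genes, Spp1 most widely.

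In T176, 9 of 12 markers of epithelium lay below their values in every other tumour, while Krt5, Krt14 and Esrp1 (-1.67, 0.78 and -0.18) lay within the range of the others. In this tumour, the epithelial markers Epcam, Cdh1, Krt8 and Krt18 stood at -4.09, -4.58, -3.53 and -4.25, against lowest values of 0.70, -0.34, -0.45 and 1.14 among the other 11 tumours. T176 was also apart in transcripts that depend on sex, which were looked at after their values were seen. Xist, the RNA of the inactive X chromosome, stood at -4.29 in T176, against -1.09 to 0.67 in the other 11 tumours. The 2 arrays of T284, averaged within that range, differed widely for Xist, at -2.30 and 0.29. The Y-linked Eif2s3y stood at -0.09 in T176, against -5.14 to -4.24 in the other 11, and the Y-linked Kdm5d at 0.77, against -1.52 to -0.24. The probes of 5 further Y-linked genes, Uty, Sry, Zfy1, Zfy2 and Usp9y, gave T176 values inside the range of the other 11. Nothing in the labels marks T176, and it was measured on 1 array, so each result that rests on it is given with and without it where that can be done. The array values hold no signal level, so whether a tumour's low ratio lies above the array background is unknown. In bulk tumour RNA, fewer cells of a type and less RNA per cell cannot be told apart.

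Of the 4 SIBLING genes listed, Dmp1, Ibsp, Mepe and Spp1 follow each other in this order on mouse chromosome 5 with no other protein-coding gene between them in RefSeq, and the other members lie on chromosomes X, 7, 9, 17, 15 and 4. The 250 bases before a RefSeq start are shown for the 3 measured SIBLING genes and for Phex, so that the shared genes of the cluster can be read beside a member from elsewhere. Dmp1 has a further start, whose window is not shown. All come from RefSeq, build GRCm38.p6. The Ibsp window is chr5:104299037-104299286, that of Mepe chr5:104325079-104325328 and that of Dmp1 chr5:104197325-104197574, all on the plus strand, and that of Phex is chrX:157415287-157415536 on the minus strand. Capitals mark matches, on either strand, to ACCACA (the core bound by Runx factors), CCAAT (the CCAAT box) and CGTCA (the core of a cyclic AMP response element), whose matches do not overlap here. These 3 motifs were kept out of 8 after their matches had been seen; of the other 5, the longer Runx core AACCACA occurred in 3 of the 11 member windows (4.4% of all windows), the homeobox core TAATTA in 2 (4.84%), the whole cyclic AMP element TGACGTCA in 0 (1.55%), the AP-1 element TGANTCA in 0 (6.75%) and the TCF element CTTTGAT in 1 (3.21%). The longer Runx core and the whole cyclic AMP element each contain the shorter one.
Ibsp: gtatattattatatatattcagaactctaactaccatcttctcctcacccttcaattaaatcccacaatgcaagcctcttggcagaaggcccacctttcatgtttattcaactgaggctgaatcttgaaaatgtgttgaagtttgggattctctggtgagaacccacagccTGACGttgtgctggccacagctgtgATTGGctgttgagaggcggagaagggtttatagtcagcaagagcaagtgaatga
Mepe: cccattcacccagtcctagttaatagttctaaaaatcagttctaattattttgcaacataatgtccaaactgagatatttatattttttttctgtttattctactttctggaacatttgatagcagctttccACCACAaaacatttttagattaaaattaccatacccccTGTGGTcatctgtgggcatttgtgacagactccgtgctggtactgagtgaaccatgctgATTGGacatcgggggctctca
Dmp1: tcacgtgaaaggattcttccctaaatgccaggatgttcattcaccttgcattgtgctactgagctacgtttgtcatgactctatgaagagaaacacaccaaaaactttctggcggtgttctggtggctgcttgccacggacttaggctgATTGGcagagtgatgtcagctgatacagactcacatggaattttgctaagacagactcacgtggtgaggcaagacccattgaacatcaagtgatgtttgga
Phex: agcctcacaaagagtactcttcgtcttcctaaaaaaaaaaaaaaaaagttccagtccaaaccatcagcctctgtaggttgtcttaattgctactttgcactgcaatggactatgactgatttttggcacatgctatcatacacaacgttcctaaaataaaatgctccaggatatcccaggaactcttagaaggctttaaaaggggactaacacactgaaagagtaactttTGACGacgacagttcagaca
A CCAAT box, in each case as ATTGG, stood 54 bases before the start of Ibsp, 21 before Mepe, 101 before the Dmp1 start shown and 46 before a start of Spp1. The Dmp1 window not shown, chr5:104202367-104202616, held ATTGG 57 bases and ACCACA 164 bases before its start. A further window of Spp1 held none of the 3 motifs. It was present in a window of all 4 SIBLING genes (5 of their 6 windows) and in 0 of 5 windows of the 4 other members that RefSeq's table holds, Alpl, Ifitm5, Phex and Runx2, against 33.8% of 32851 windows of the same length over all genes. ACCACA occurred in 4 of the 11 member windows, 2 times in that of Mepe, and in 14.0% of all windows. CGTCA occurred in 3 of 11, among them Ibsp, as TGACG, 79 bases before the start, and Phex, and in 17.8% of all windows. These are matches of letters in a short window, not binding sites.

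Ibsp had the widest difference. It stood at 5.73 in T176, against a lowest value of -5.07, a median of -4.33 and a highest of 0.28 in the other 11 tumours. The second place was that of T2023, at 0.28. The remaining 10 tumours lay close together between -5.07 in T172 and -4.08 in T221, a spread (SD 0.36, n = 10) below that between arrays of 1 tumour, where T172 gave -4.54 and -5.60 and T284 -4.69 and -5.08 (replicate SD 0.57 from the 2 pairs). So Ibsp showed 3 levels: T176, then T2023 lower by 5.45, then 10 tumours that could not be ordered among themselves, with T221 the nearest, 4.36 below T2023. T176 was 9.83 above the mean of the other 11, the largest such difference of all 16618 genes, and T2023 was 4.82 above the mean of the remaining 10 when T176 was left out.

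Mepe and Dmp1, the other measured SIBLING genes, differed from each other although they flank Ibsp. Mepe, an inhibitor of mineralisation made by osteocytes, stood at 2.48 in T176, against -0.69, -0.40 and -0.19 as the lowest, median and highest of the other 11. None of the 11 reached the reference, and their SD was 0.15, close to the replicate SD of 0.14, so T176 alone stood apart. Dmp1, which osteocytes and odontoblasts secrete, was highest not in T176 but in T646, at 2.17, followed by T176 at 1.09 and T2134 at 0.04. The other 9 tumours lay between -3.00 in T135 and -1.46 in T55, and the replicate SD was 0.67. T646 exceeded T176 by 1.08, which is as large as the difference between the arrays of T284 (-2.15 and -3.23), so the order of the first 2 tumours is not settled. In T2023, where Ibsp was high, Dmp1 was -1.95, inside the range of the low tumours. T646, with Ibsp at -4.58 and Mepe at -0.38, did not share the high Dmp1 with its neighbours on the chromosome.

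The membrane proteins Phex, Ifitm5 and Panx3 were each highest in T176. Phex stood at 2.94 in T176, against -3.96, -3.21 and -2.28 as the lowest, median and highest of the other 11. The next tumour, T55 at -2.28, was followed closely by T2023 at -2.63, and the 11 had an SD of 0.52 beside a replicate SD of 0.54. Panx3 stood at 5.25 in T176, against -2.17, -1.44 and -0.43 in the other 11, the highest of these being T2023, 0.68 above T372. Ifitm5 stood at 2.97 in T176, against -1.06, -0.42 and 0.23, again with T2023 next and 0.30 above T2134. For Panx3 and Ifitm5 the lead of T2023 over the tumour after it was about the size of the replicate SD (0.61 and 0.39). In size, T176 lay 6.70 (Panx3), 6.15 (Phex) and 3.40 (Ifitm5) above the mean of the other 11, and by this difference Panx3 and Phex ranked 5 and 12 of all genes.

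Sp7, the osteoblast transcription factor, stood at 2.51 in T176, against -0.43, -0.02 and 0.61 as the lowest, median and highest of the other 11 tumours. T2023 was next at 0.61, followed by T172 at 0.35. That gap of 0.26 was about the size of the replicate SD of 0.23, which is that of a single array, so this order is not settled. Alpl had another order. It stood at 3.98 in T176, against -3.90, -1.11 and 2.52 in the other 11, and it was second in T284, whose arrays gave 2.34 and 2.70, then in T172, whose arrays gave 0.37 and 0.73. In T2023 Alpl was -2.70, and T646, the tumour with the highest Dmp1, had the lowest Alpl at -3.90. With a replicate SD of 0.26, the Alpl values of the other 11 spread widely (SD 1.79, n = 11). Alpl and Dmp1 therefore varied between tumours other than T176, whereas Mepe, Phex, Ifitm5, Panx3 and Sp7 had SDs between 0.15 and 0.52 over those 11. Ibsp had an SD of 1.49 over the 11, beside 1.49 for Dmp1, and of 0.36 once T2023 was also left out.

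**Figure D1:**
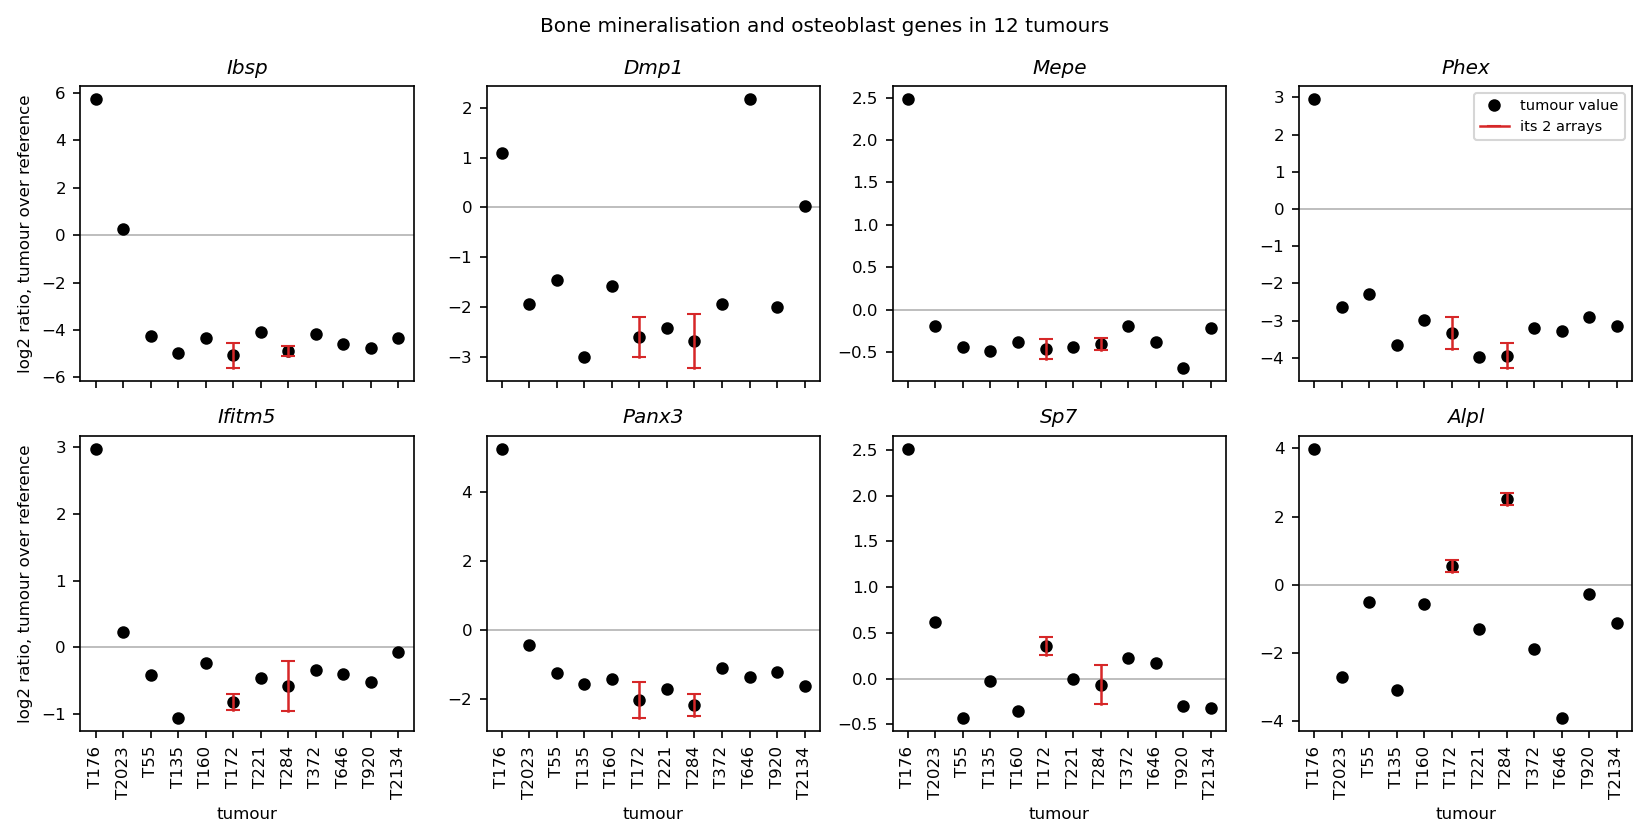
Log2 ratio of tumour over reference RNA (y axis, scaled per gene) for the 8 measured genes in each of 12 tumours (x axis); black points are tumour values and red bars join the 2 arrays of T172 and of T284. T176 is highest for every gene except Dmp1, which is highest in T646 at 2.17, and the second Ibsp value belongs to T2023 at 0.28.

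Across the members, 7 of 8 were highest in T176, where 13.2% of all genes were, and all 8 were more than 2 above the mean of the other 11, where 2.24% of all genes were at least 2 higher. The median difference of T176 was 4.24 for the 8 genes and -0.02 for all genes. By limma's moderated test of T176 against the other 11, 6 of 8 members passed an adjusted p under 0.05, where 2.47% of all genes passed as higher; by limma's F-test between tumours 8 of 8 passed, where 18.6% of all genes did, and 3 of 8 without T176 (Ibsp, Dmp1 and Alpl), where 15.1% did. Since the members were chosen with these values known, nothing is read from those counts. With T176 set aside, T2023 was highest in 5 of 8 (Ibsp, Mepe, Ifitm5, Panx3 and Sp7), where 11.3% of all genes were highest in T2023. For Mepe that lead over T372 was 0.002, far below the replicate SD, and for Ifitm5, Panx3 and Sp7 the lead was about the size of it. Only for Ibsp, with a lead of 4.36, did T2023 stand clear of the next tumour. The Ibsp value of T2023 was known when the list was chosen, so nothing is read from this count either.

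As a description over tumours that share the reference RNA, the 28 pairs of members had a median Pearson r of 0.88 over 12 tumours (lowest -0.00 for Dmp1 with Alpl, highest 0.98 for Phex with Panx3). Over the other 11 tumours, without T176, the median was 0.25, with 10 pairs below 0. The pairs that stayed highest were Ibsp with Panx3 (r = 0.78), Ibsp with Ifitm5 (0.75) and Phex with Panx3 (0.69). T2023 is the highest of the 11 in Ibsp, Panx3 and Ifitm5, so the pairs with Ibsp can rest on that single array. Alpl was negatively correlated with all 7 others over the 11 tumours, from -0.61 with Panx3 to -0.17 with Phex.

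**Figure D2:**
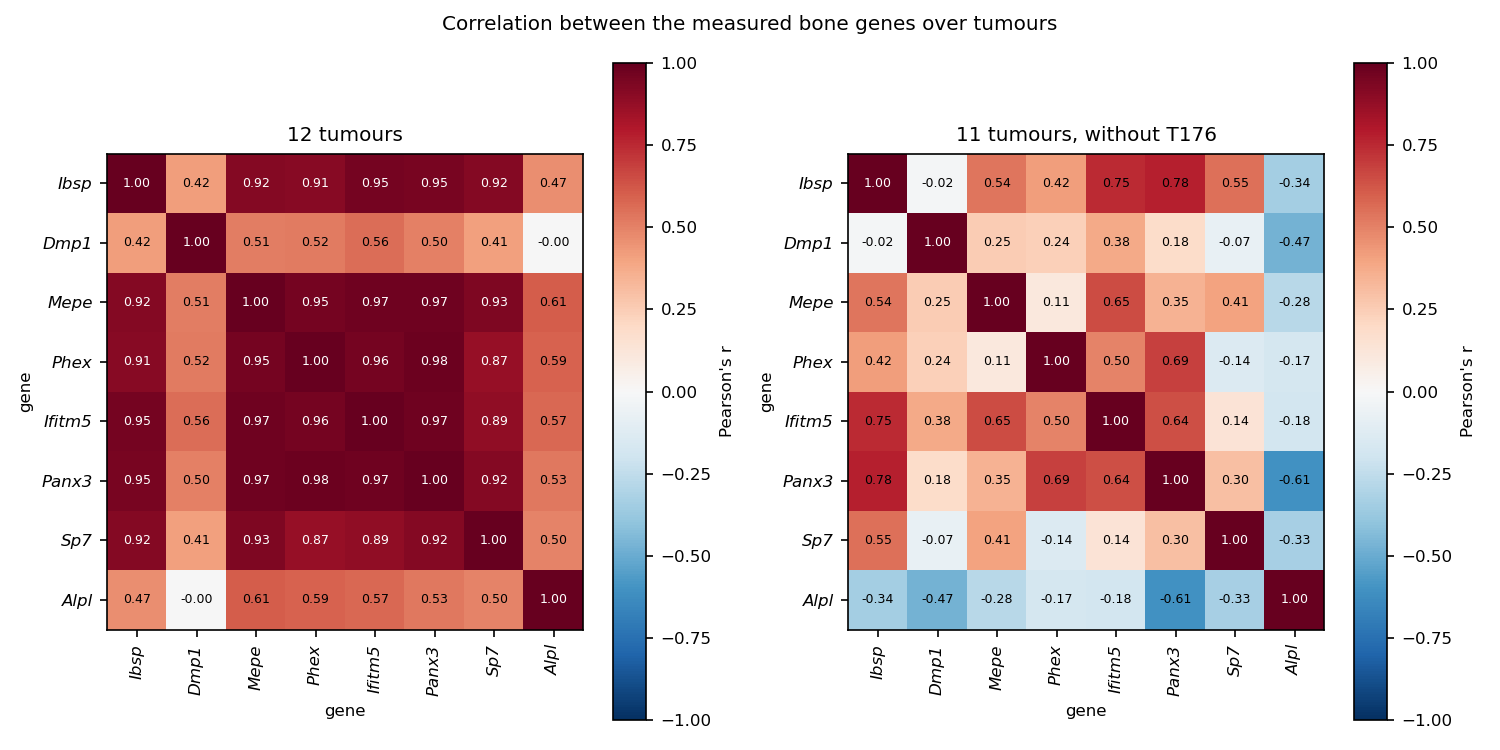
Pearson correlation of log2 ratios between each pair of the 8 measured genes, over 12 tumours on the left and over 11 without T176 on the right; colour and printed numbers give r. The median over pairs is 0.88 on the left and 0.25 on the right, where Alpl is negative with each of the other genes.

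The genes whose pattern was most like that of Ibsp were sought among 1320 other genes with an SD over tumours of at least 1. Both this SD and the ranking included T176, in which 216 of the 1320 were highest. A high r over 12 tumours can therefore rest on the single T176 value, and the lists below are a description only. Without T176, Ibsp had 1 high value, that of T2023, and the spread of the remaining 10 was below the replicate SD. An r with Ibsp over 11 tumours can thus rest on the single T2023 array. The 8 with the highest Pearson r over 12 tumours were Ptprd (0.951), AI593442 (0.951), Prdm16 (0.951), Omd (0.949), Col22a1 (0.940), Acp5 (0.938), Kazald1 (0.927) and Spaca1 (0.922). Without T176 their r fell, in the same order, to 0.736, 0.889, 0.763, 0.715, 0.662, 0.637, 0.648 and 0.512. AI593442 kept the highest r over 11 tumours without T176 (0.889), with -1.06 in T2023 and -3.86 to -2.84 in the remaining 10. Kazald1 had its 2 highest values in T176, at 3.91, and T2023, at 0.35, while the remaining 10 lay between -2.70 and -1.08 (r = 0.648 without T176). Omd, osteomodulin, a small proteoglycan of bone matrix, stood at 4.60 in T176, -1.44 in T2023 and -4.25 to -1.95 in the other 10. The other members led to partly the same genes. Dkk1, a secreted Wnt antagonist, was the nearest to Panx3 (r = 0.991; 0.828 without T176) and to Phex (0.981; 0.709), and Col22a1 the nearest to Ifitm5 (0.982; 0.809), for which Eif2s3y held place 3 (0.964; 0.552). For Dmp1 the nearest were Olfml3 (0.761), Bmp1 (0.755), a protease that cuts the Dmp1 precursor, and Spaca9 (0.753). Without T176 their r was 0.681, 0.666 and 0.7. For Alpl the nearest were Cmbl (0.840), Farp2 (0.838) and Slc26a7 (0.790), with 0.782, 0.787 and 0.629 without T176.

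Other bone genes were then compared in T176 against the other 11 tumours by limma's moderated test over all 16618 genes, in which the single T176 value is assumed to vary like the others. By limma's test 2.47% of all genes were higher in T176 and 1.36% lower, the shares to set beside each list below. These were 637 genes, while the same test of each other tumour called between 1 (T160) and 36 (T920). T176 thus stood apart in many genes beyond the lists. Among 14 measured genes of osteoblast matrix, 6 were higher in T176 and 0 lower, and 8 did not pass. Omd was higher by 7.64 ± 0.81 (here and in the next paragraphs ± gives the SE for T176 as 1 value against 11; limma adjusted p = 0.000116), and the type I collagen genes Col1a1 and Col1a2 by 4.41 ± 0.76 (adjusted p = 0.00408) and 4.24 ± 1.04 (0.0398). Col1a1 stood at 1.89 in T176, against -3.52 to -1.20 in the other 11. Sparc (osteonectin), which binds collagen and calcium, was higher by 4.27 ± 0.89 (adjusted p = 0.0152), and Bgn and the collagen chaperone Serpinh1 by 2.71 and 2.78. The members that did not pass included Col5a2 (2.26 in T176, against -3.24 to 0.58), Ogn and Postn, the last at -4.24 in T176 and thus below the -4.06 to -0.37 of the other 11. The list had a median T176 difference of 2.74, against -0.02 over all genes. The osteocalcin genes Bglap, Bglap2 and Bglap3 had no listed probe.

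Genes of mineral and phosphate handling mostly did not pass. The shares over all genes were again 2.47% higher and 1.36% lower, here and for the regulators. Of 14 measured, 2 were higher in T176, 0 were lower and 12 did not pass, and the median difference was -0.15. Pth1r, the receptor of parathyroid hormone in osteoblasts, stood at 3.20 in T176, against -2.86 to -1.89 in the other 11, a difference of 5.66 with an SE of 0.29 and a limma adjusted p of 6.48e-07. Smpd3, a sphingomyelinase needed for normal bone mineral, was higher by 1.75 ± 0.37 (adjusted p = 0.0167). Slc20a1, a phosphate transporter, stood at -1.03 in T176, against 0.20 to 2.50 in the other 11, which did not pass (adjusted p = 0.0799). Phospho1, a phosphatase that starts mineral inside vesicles, was 0.73 in T176, within the -0.36 to 0.85 of the others, and Fgf23, a phosphate hormone, 0.33 beside 0.39 to 1.50. Among 19 osteoblast regulators, 4 were higher in T176, 0 lower and 15 did not pass, with a median of 0.16. Dkk1 was higher by 6.50 ± 0.45 (adjusted p = 4.25e-06), Dlx6, a homeobox factor, by 4.20 ± 0.28 (4.23e-06), Mef2c by 4.25 ± 0.65 (0.00187) and Twist1 by 3.46 ± 0.87 (0.0444). Dlx5, which neighbours Dlx6 and acts upstream of Sp7, had near-equal values of 2.35 in T176 and 2.38 in T2023, while the other 10 lay between -1.10 and 1.61, and did not pass in T176 (adjusted p = 0.584). Sost, the osteocyte Wnt antagonist, was 0.38 in T176, inside the 0.20 to 0.98 of the other 11.

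**Figure D3:**
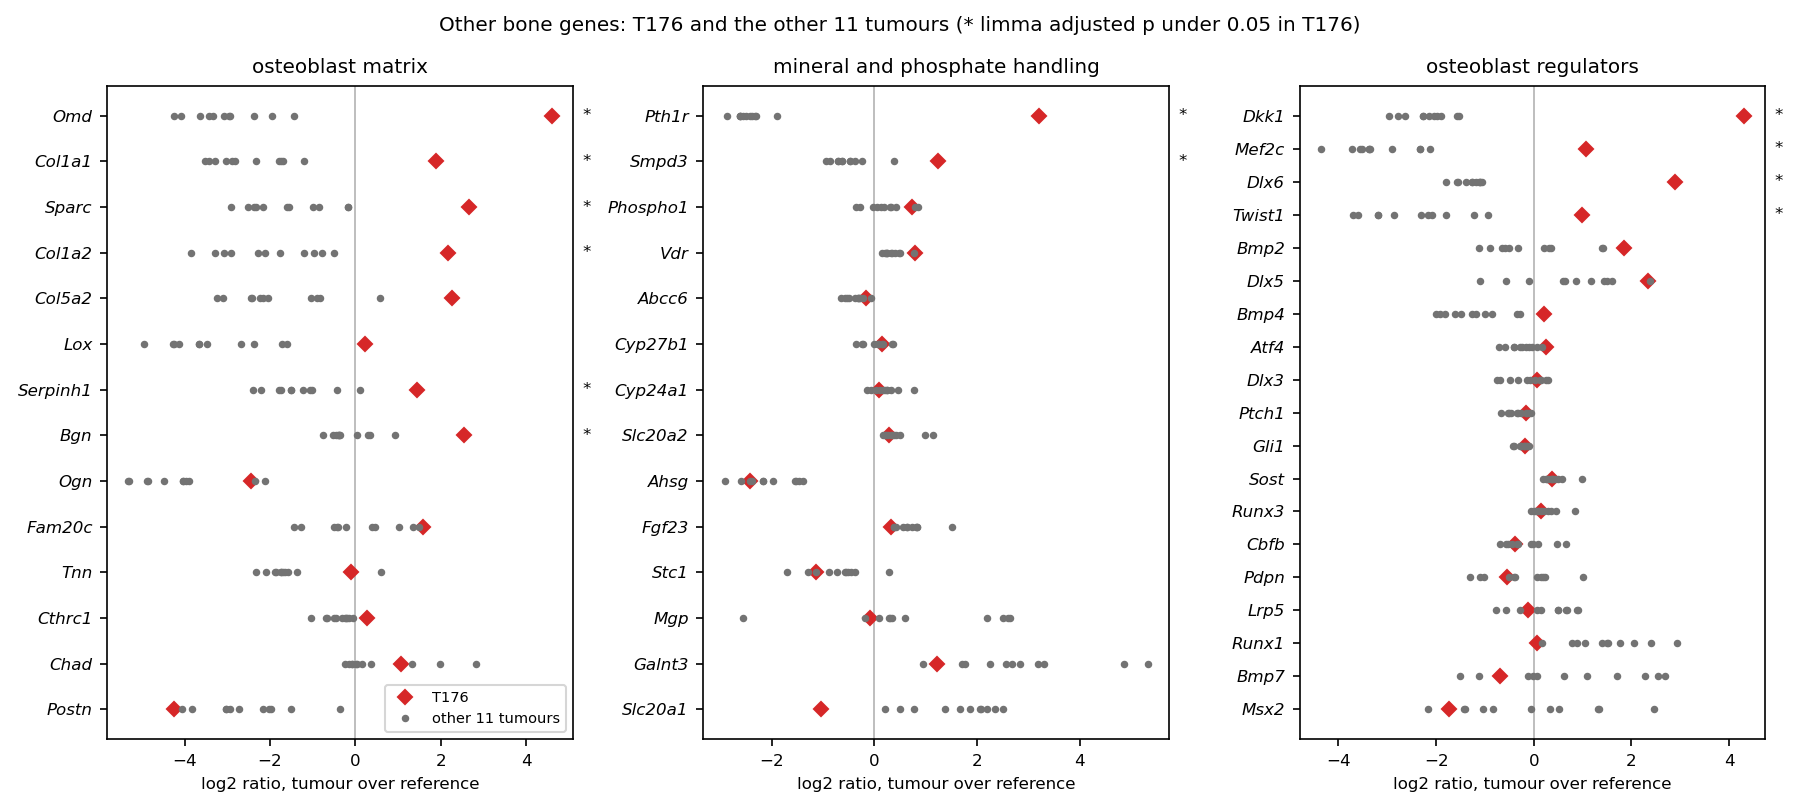
Log2 ratios of tumour over reference (x axis) for further bone genes (rows, ordered by the T176 difference); red diamonds are T176, grey points the other 11 tumours, and a star marks a limma adjusted p under 0.05 for T176. Omd, Pth1r and Dkk1 have T176 at 4.60, 3.20 and 4.31, clear of all grey points, while Sost and Phospho1 have it among them.

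Markers of other cells of the skeleton were compared in the same way, where 2.47% of all genes were higher in T176 and 1.36% lower. Of 15 osteoclast genes, 7 were higher in T176, 0 lower and 8 did not pass, the median T176 difference was 1.51, and the mean log2 ratio of the list was 1.62 in T176, against -0.63 to 0.14 in the other 11. Mmp9 and Ctsk (cathepsin K), proteases that osteoclasts use to break down bone, were higher by 6.24 ± 1.02 (SE; limma adjusted p = 0.00296) and 6.24 ± 0.94 (0.00163). Acp5, the tartrate-resistant phosphatase that marks osteoclasts, was higher by 4.09 ± 0.39 (adjusted p = 6.17e-05), and stood at 3.27 in T176, against -1.35 to -0.18. Atp6v0d2 and Dcstamp, which act in osteoclast fusion, were higher by 4.05 and 2.83, Nfatc1, their main transcription factor, by 2.56, and the proton pump subunit Tcirg1 by 1.51. The calcitonin receptor Calcr (-0.20 in T176, against -1.09 to 0.37) and Tnfrsf11a, the receptor RANK (-0.20, against 0.01 to 0.93), did not pass. Of 10 macrophage genes only Cd68 passed, as higher by 2.38 (adjusted p = 0.0222); the list's median difference was -1.63 and its mean was -0.28 in T176, against -0.09 to 1.75 in the other 11. Of 17 chondrocyte genes, 3 were higher in T176 (Col11a2, Acan and Sox6) and 1 lower (Col9a3), with a median difference of -0.25, and the mean of -1.11 in T176 lay inside the range of -1.56 to -0.20. Col2a1, the main cartilage collagen, was -3.91 in T176, against -4.61 to -1.38, and Comp -2.50.

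Epithelial genes were lower in T176 in 7 of 12 cases and higher in 0, where 1.36% of all genes were lower. St14 and Krt18 differed by -5.94 ± 0.31 (SE; limma adjusted p = 6.48e-07) and -6.61 ± 0.54 (1.56e-05). The median T176 difference of the list was -4.64 and its mean level was -2.51 in T176, against 0.52 to 1.98 in the other 11, whereas the basal keratins Krt5 and Krt14, at -1.67 and 0.78 in T176, lay within the others. Of 11 fibroblast genes 1 was higher, Fap by 4.60 ± 0.88 (adjusted p = 0.00837); the list's median difference was 0.87 and its mean of -0.55 in T176 stood just above the -2.92 to -0.62 of the others. Thy1 and Lum, at -2.19 and -3.26, were not among those that passed. Neither were Pdgfra (0.876 in T176, against -4.343 to -0.573) and S100a4 (2.823, against -2.545 to 2.064). Of the fibroblast list, 3 genes (Fap, Pdgfra and S100a4) were highest in T176 and 1, Thy1, was lowest there. Over all genes, 2.47% passed as higher in T176. No endothelial gene of 9 passed in T176 (0 at an unadjusted p under 0.05 and 0 with a robust prior), with a median difference of 0.45 and a mean of -0.62 in T176, against -1.43 to -0.13. The part of any of these cell types in the bone gene values was not tested.

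**Figure D4:**
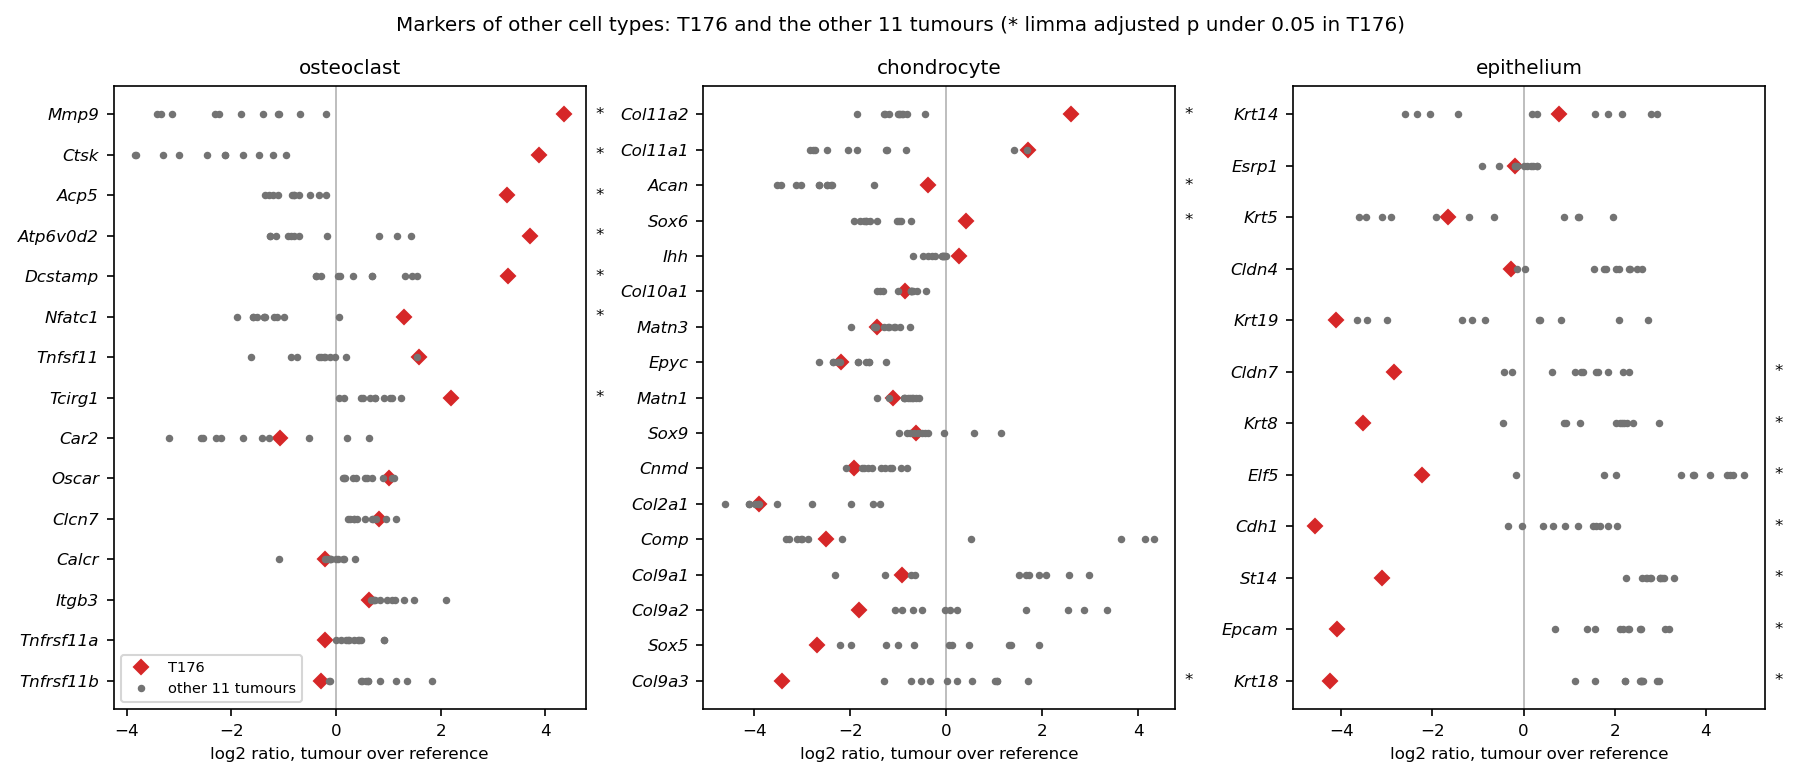
Log2 ratios of tumour over reference (x axis) for markers of osteoclasts, chondrocytes and epithelium (rows, ordered by the T176 difference); symbols as for the other bone genes. T176 is right of all grey points for Mmp9, Ctsk and Acp5 and left of all of them for Krt18, Epcam and St14, while Col2a1, at -3.91, lies among them.

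None of the genes listed here as SIBLING receptors and proteases, or as neighbours of the SIBLING genes, passed in T176. Over all genes, 2.47% were higher and 1.36% lower. Of 12 receptors and proteases 0 passed (3 at an unadjusted p under 0.05, 0 with a robust prior), and their median difference was 0.61. Mmp13, a collagenase of bone and cartilage cells, stood at 4.51 in T176 and 2.02 in T646, against -3.74 to 1.14 in the other 10, with a difference of 5.79 ± 1.83 in T176 (SE; limma adjusted p = 0.127). Bmp1, at place 2 of the genes most like Dmp1, stood at 2.58 in T176 and 2.32 in T646. The integrin chains Itgav and Itgb3, the latter counted in the osteoclast list, together bind the RGD site of SIBLING proteins. They stood at 0.69 and 0.64 in T176, against -0.60 to 1.27 and 0.66 to 2.11. Of the 7 measured genes listed as neighbours of the SIBLING cluster 0 passed in T176 (0 at an unadjusted p under 0.05, 0 with a robust prior), with a median of -0.28. RefSeq places 4 of these on chromosome 5 (Dspp, Sparcl1, Nudt9 and Hsd17b11) and 3, Abcg2, Ppm1k and Herc3, on chromosome 6, so the last are not neighbours in the mouse. Dspp, the gene next to Dmp1 and itself a SIBLING gene of dentine, was -1.99 in T176, within the -2.20 to -0.63 of the other 11. Sparcl1, which follows Dspp on the side away from Dmp1, differed between tumours (limma F-test adjusted p = 0.000296), with 1.44 in T646, -2.17 in T176 and -3.21 in T160.

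Between all 12 tumours, the F-test called 13 of 14 osteoblast matrix genes (12 of 14 without T176), 4 of 14 genes of mineral handling (3 without T176), 10 of 19 regulators (6 without T176) and 8 of 15 osteoclast genes (5 without T176), where 18.6% of all genes were called (15.1% without T176). Msx2 and Bmp7 were among the regulators with the widest spread that did not turn on T176. Msx2, a homeobox factor, was highest in T372 at 2.46 and lowest in T920 at -2.17, and Bmp7, a bone morphogenetic protein, highest in T2023 at 2.70 and lowest in T284 at -1.50 (adjusted p = 0.000951 and 0.000876 without T176). Galnt3, which protects Fgf23 from cleavage, was highest in T284 at 5.33, the tumour second for Alpl, and Mgp, an inhibitor of calcification, lay between -2.55 in T2134 and 2.65 in T646.
Some calls in T176 depended on single samples or on the prior. Without T2023, Col1a2 (adjusted p = 0.0556), Serpinh1 (0.0599), Dcstamp (0.0509) and Twist1 (0.0501) were no longer called, Twist1 was lost also without the second array of T284 (0.0533), Tcirg1 was lost without the first array of T172 (0.0508), the second of T172 (0.0554) or the second of T284 (0.0671), and Elf5 was lost with a robust prior (0.0505).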

How the data were processed

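The labels state that total RNA was extracted with a Qiagen RNeasy kit and that tumour RNA carried Cy5 and reference RNA Cy3. The deposited table gives 1 log2 value per probe and array, read as Cy5 over Cy3; the direction comes from the dyes, per the labels, and base 2 from the range, -9.19 to 7.42. Array medians lay between 0 and 0.018. For scanner, background correction, normalization, spot filters and slide or scan batches, nothing was stated in the labels or the table header. Between any 2 arrays r was 0.465 to 0.898, none below 0. Each array had 22501 to 22566 of 22575 probes, and only the number of arrays and these missing values describe precision.

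Of the probes, 18658 had 1 gene symbol, 30 several and 3887 none. Symbols of the platform annotation were updated through RefSeq (GRCm38.p6). Probes of a gene were averaged, and 16618 genes with values on at least 12 of 14 arrays and in every tumour were kept. Limma 3.58.1 in R 4.3.3 gave an F-test between 12 tumours on 14 arrays. Its error comes from the repeat arrays of T172 and of T284 (prior SD 0.313). Limma also gave a test of T176, and likewise of each other tumour, against the mean of the remaining 11. P-values were adjusted after Benjamini-Hochberg over all genes, in the second test within each tumour. The steps were tested on simulated data. The members, gene lists and tests were chosen with earlier results of these data known. Named from each list are up to 5 members called by the F-test with the widest SD, up to 5 called in a single tumour with the largest difference, and cell markers; other list genes were named after their values were seen. P-values cover only the spread of these samples. Python 3.11.15 with numpy 2.4.6 and pandas 2.3.3 was used.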

Additional observations from a re-analysis of the deposited data

How the results depend on the processing

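No call in T176 changed sign under the alternatives run; among the member differences of 1 tumour from the rest, those of Mepe and Phex in T2023 did, Phex from 0.08 as deposited to -0.09 after quantile normalization. After quantile normalization the T176 minus others differences were 10.46 for Ibsp, 7.51 for Panx3, 5.61 for Alpl, 3.81 for Ifitm5, 3.19 for Mepe and 2.83 for Sp7, all larger. Without T176, the T2023 minus others differences were 4.82 for Ibsp (3.89 with T176), 1.12 for Panx3 (0.50), 0.69 for Sp7 (0.45), 0.64 for Phex (0.08), 0.22 for Mepe (-0.05) and -1.75 for Alpl (-2.19); against the median of the others they were 4.61 for Ibsp and 0.21 for Mepe. The sign for Mepe in T2023 therefore depends on T176, at a size near the replicate SD. Without T176, the F-test called 6 regulators, 5 osteoclast genes and 3 members. At an adjusted p under 0.01 the F-test called 1591 genes, against 3090 at 0.05, and 1 endothelial gene; at 0.01 the test of T176 against the other 11 called 224 genes higher (411 at 0.05) and 121 lower (226), with 3 matrix, 4 osteoclast, 1 mineral and 1 chondrocyte gene higher, 0 chondrocyte genes lower and 0 macrophage genes higher. Of 288 repeats of 32 calls in T176 over the lists, the members left out, 9 were lost and none changed sign. No paired analysis was possible because the labels give no replicate numbers that pair tumours. Weak signal limits what the low ratios show, since no signal levels were used here. The order of tumours closer than the replicate SD (0.14 to 0.67 over members) is not settled by these arrays. That SD is of a single array, and a difference between tumours with 1 array each varies more, so gaps somewhat above it are not settled either.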
